A study of Mus musculus with 6 samples.

Results

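F-box and Kelch-like proteins are the substrate-binding adaptors of cullin ubiquitin ligases, and their transcripts were examined in Mvt-1 cells after a short exposure to insulin. The genes were those whose single symbol in the platform annotation began with Fbxo, Fbxl, Fbxw or Klhl and a digit, without Fbxo32 and Klhl24. The array named 103 such genes with 191 probes, and 56 of them had a probe with a detection p under 0.05 on at least 3 of the 6 arrays. These 56 were among 9478 genes tested. Mvt-1 is a mouse mammary tumour line that arose in mice carrying Myc and Vegf transgenes under a mammary tumour virus promoter. All cells, vehicle controls included, were starved of serum for 16 h. Of the samples, 3 were labelled vehicle and 3 insulin (10 nM), both for 90 min. Each of the 6 RNA samples was hybridized to a single-colour Illumina expression beadchip. The labels do not say whether replicates were separate cultures, so the p-values rest on a spread between samples that may be technical.

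An F-box protein binds Skp1 through its F-box and so docks on the scaffold Cul1, which completes an SCF ligase. The letter after Fbx names the part that grips the substrate, leucine-rich repeats in Fbxl, WD40 repeats in Fbxw and other folds in Fbxo proteins. A Kelch-like protein docks directly on Cul3 through its BTB domain and holds the substrate with a Kelch propeller. Insulin acts through the kinase AKT, which keeps FOXO factors out of the nucleus, and Fbxo32 (atrogin-1) is a classical FOXO target that insulin lowers in muscle.

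No member passed the test between insulin and vehicle. Of the 56 members, 0 were higher and 0 lower at an adjusted p under 0.05 (limma with Benjamini-Hochberg over all genes tested). Over all 9478 genes 44 passed, or 0.464%, 12 higher and 32 lower. This split moved between alternatives. It was 11 and 11 with the authors' deposited processed values and 12 and 16 with a larger offset in the background correction. With a background fitted to the signals it was 16 and 33, with median scaling 11 and 22, and without insulin replicate 3 it was 36 and 31. At an unadjusted p under 0.05 there were 6 members, or 10.7%, against 11% of all genes. All 6 had lower values with insulin, where 6.15% of all genes had a p under 0.05 and a lower value. At that level 4 members were lower and 1 higher without insulin replicate 2. Without vehicle replicate 3 there were 5 lower and 1 higher.

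The members' log2 changes ran from -0.46 to 0.24, with a median of -0.049 (SD over members 0.17), beside a median of -0.015 (SD 0.19) over all genes tested. There were 23 positive and 33 negative changes, or 41.1% positive beside 46.0% of all genes. Without insulin replicate 2 there were 28 and 28, and without vehicle replicate 1 there were 27 and 29. None of the 56 differed by over 1.5-fold, whereas 0.823% of all genes tested did. The 95% interval of the difference lay within 1.5-fold either way for 48 members, or 85.7%, beside 87.9% of all genes, and within 2-fold for all 56 members. The 8 members whose interval reached past 1.5-fold were Klhl30, Fbxl8, Fbxo10, Fbxw17, Fbxl20, Fbxo2, Fbxo31 and Fbxo46, each toward lower values with insulin. The bound farthest from 0 was -0.74 for Klhl30 on the lower side and 0.51 for Fbxw2 on the upper side.

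**Figure D1:**
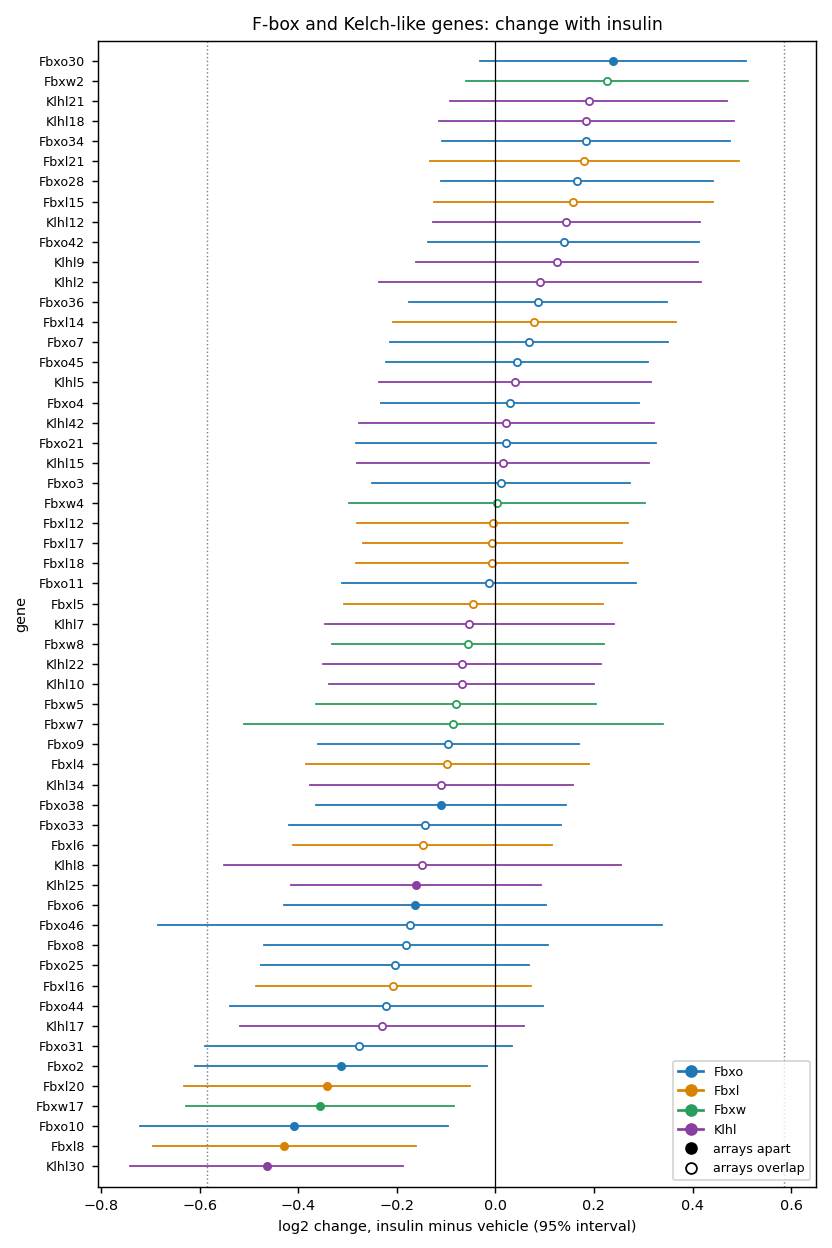
Log2 change of each of the 56 genes, insulin minus vehicle, with its 95% interval (limma, n = 3 arrays per group), coloured by family; filled points are genes whose insulin arrays all lie on one side of the vehicle arrays, and dotted lines mark a 1.5-fold difference. The points run from -0.46 for Klhl30 to 0.24 for Fbxo30, and 6 intervals lie wholly below 0.

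The 2 genes that the rule left out had larger changes at their brightest probes. Fbxo32, which marks muscle proteins for breakdown, had log2 intensities of 6.35, 6.31 and 6.76 with vehicle and 5.34, 5.20 and 5.03 with insulin. Klhl24, a Kelch-like adaptor that controls keratin 14 in skin, had 8.18, 8.49 and 8.70 with vehicle and 7.66, 7.90 and 7.61 with insulin. In both genes every insulin array lay below every vehicle array. Klhl24 fell by 0.74 ± 0.15 on the log2 scale (standard error, n = 3 per group, limma adjusted p = 0.0390), a call that 8 of 15 alternatives ended (adjusted p from 0.00154 to 0.211). At the brightest probe both lay beyond the lowest member, Klhl30. Further detected probes gave -0.77 ± 0.15 and -0.20 ± 0.16 for Fbxo32 and -0.25 ± 0.13 for Klhl24.

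**Figure D2:**
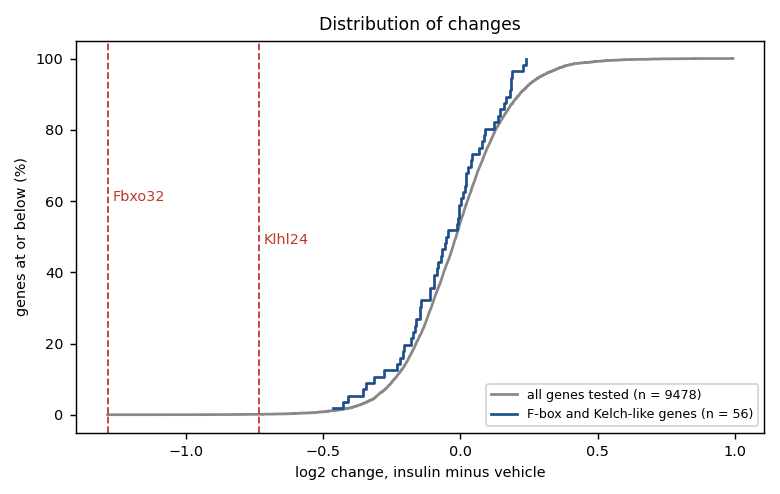
Share of genes at or below each log2 change (insulin minus vehicle), for all 9478 genes tested and for the 56 F-box and Kelch-like genes, with dashed lines at Fbxo32 and Klhl24, which are not among the 56. The curve of the 56 genes ends at -0.46 and 0.24, and both dashed lines lie to the left of it.

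By family, 22 of 33 named Fbxo genes, 12 of 15 Fbxl genes, 6 of 20 Fbxw genes and 16 of 35 Klhl genes were tested. The median log2 change was -0.054 for Fbxo, -0.026 for Fbxl, -0.068 for Fbxw and -0.018 for Klhl genes. The SD over members was 0.17 to 0.19 in each family, and whether the families differ was not tested. Negative changes were found in 12 of 22 Fbxo, 9 of 12 Fbxl, 4 of 6 Fbxw and 8 of 16 Klhl genes.

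Of the 56 members, 10, or 17.9%, had insulin arrays that did not overlap the vehicle arrays, against 15.9% of all genes tested, so the share was near the background. In 9 members the insulin arrays were all lower (9.34% of all genes), and in 1 they were all higher (6.59%). The values of these 10 follow, by what is known of each gene. Each array measured the RNA of a whole culture, so fewer expressing cells and less RNA per cell cannot be told apart.

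**Figure D3:**
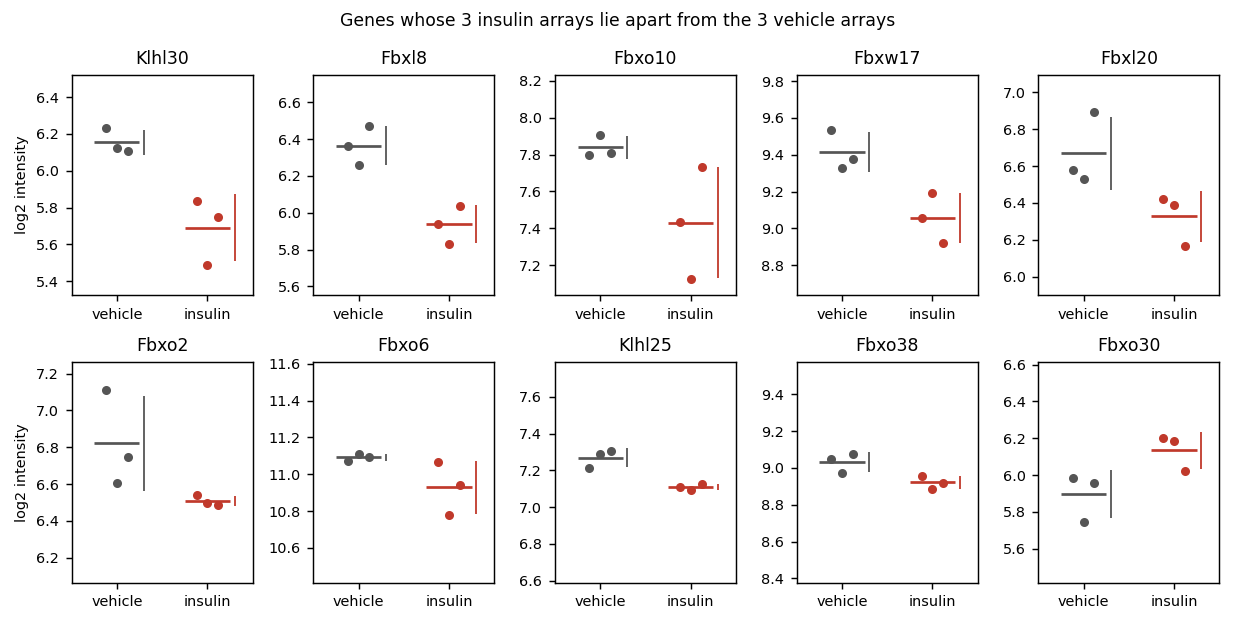
Log2 intensity on each of the 6 arrays for the 10 genes whose groups do not overlap; points are arrays, horizontal lines group means, vertical lines ± 1 SD (n = 3), and each panel spans the same height on the log2 scale. In 9 panels the insulin arrays lie below the vehicle arrays, and in Fbxo30 they lie above.

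Fbxo2, Fbxo6 and Fbxo44 are neighbours in the RefSeq annotation (GRCm38.p6) and belong to the same family of related F-box proteins. Of these, Fbxo2 and Fbxo6 recognise sugar chains on glycoproteins. Fbxo2 also directs the insulin receptor to degradation in mouse liver. It read 7.11, 6.60 and 6.75 with vehicle and 6.54, 6.50 and 6.48 with insulin, and the lowest vehicle array was close to the highest insulin array. Its log2 change was -0.31 ± 0.14 (limma adjusted p = 0.429), and -0.17 without vehicle replicate 1. Fbxo6, which acts on misfolded glycoproteins and on the checkpoint kinase Chk1, read 11.07, 11.11 and 11.09 with vehicle and 11.07, 10.78 and 10.94 with insulin. The groups came within rounding of each other, and the change was -0.16 ± 0.13 (adjusted p = 0.690), or -0.089 without insulin replicate 2. Fbxo44, linked to BRCA1 turnover in human cells, read 5.97, 5.67 and 5.55 with vehicle and 5.78, 5.40 and 5.35 with insulin. Its groups overlapped, with a change of -0.22 ± 0.15 (adjusted p = 0.642). The other members of this family named on the array, Fbxo17 and Fbxo27, were detected on 0 arrays.

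Among adaptors tied to survival and the cell cycle, Fbxo10, which targets the survival protein BCL2 in human lymphoma, read 7.80, 7.91 and 7.81 with vehicle and 7.43, 7.13 and 7.73 with insulin. Insulin replicate 3 lay just under the vehicle arrays, and the change was -0.41 ± 0.15 (limma adjusted p = 0.330). Without that array the change was -0.56 and the adjusted p 0.0929, the lowest of any member under any alternative, while without insulin replicate 2 they were -0.26 and 0.707. Fbxl8, linked to turnover of D-type cyclins in human cells, read 6.36, 6.26 and 6.47 with vehicle and 5.94, 5.83 and 6.04 with insulin. All 3 insulin arrays lay below the vehicle arrays, by 1.35-fold in the mean (log2 change -0.43 ± 0.13, adjusted p = 0.190). Fbxo31, which removes cyclin D1 after DNA damage, read 8.59, 8.997 and 8.63 with vehicle and 8.70, 8.31 and 8.38 with insulin, so that its groups overlapped. Its change was -0.28 ± 0.15 (adjusted p = 0.518), or -0.15 without vehicle replicate 2, and both further probes gave values of the same sign, -0.22 and -0.28.

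Klhl30, a Kelch-like gene, had the most negative change and the smallest p of the members. It read 6.23, 6.13 and 6.11 with vehicle and 5.84, 5.49 and 5.75 with insulin, a clear gap between the groups. Insulin was 1.38-fold lower in the mean, a log2 change of -0.46 ± 0.13 with a 95% interval from -0.74 to -0.19 (limma adjusted p = 0.161). Over the alternatives the change ran from -0.54 to -0.24 and the adjusted p from 0.104 to 0.515. Fbxw17, a WD40 member, read 9.54, 9.33 and 9.37 with vehicle and 9.06, 9.19 and 8.92 with insulin, again apart (log2 change -0.36 ± 0.13, adjusted p = 0.330). Fbxl20, also called Scrapper, clears a presynaptic protein in mouse neurons. Its vehicle arrays read 6.58, 6.53 and 6.89 and its insulin arrays 6.42, 6.39 and 6.17, with vehicle replicate 3 well above the rest (log2 change -0.34 ± 0.14, adjusted p = 0.377).

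The remaining members with groups apart differed little. Klhl25, the adaptor through which Cul3 removes the translation repressor 4E-BP1, read 7.21, 7.29 and 7.30 with vehicle and 7.11, 7.09 and 7.12 with insulin. The replicates were tight and the change small, at -0.16 ± 0.12 (limma adjusted p = 0.679). A further probe for Klhl25 gave 0.24 ± 0.13, the opposite sign, and the mean of both probes 0.038. Fbxo38, which targets the receptor PD-1 in T cells, had a change of -0.11 ± 0.12. Fbxo30, a regulator of muscle mass also called MUSA1, was the 1 member with all insulin arrays higher. It read 5.98, 5.75 and 5.96 with vehicle and 6.20, 6.18 and 6.02 with insulin, a change of 0.24 ± 0.13 (adjusted p = 0.524).

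Adaptors with well-known substrates were looked at whatever their change. Fbxw7, the tumour suppressor that recognises MYC, cyclin E, JUN and NOTCH1, read 6.84, 6.19 and 6.17 with vehicle and 6.80, 6.06 and 6.08 with insulin. In both groups the array of replicate 1 stood well above the other arrays. The change was -0.085 ± 0.20 with a 95% interval from -0.51 to 0.34, and it ran from -0.33 to 0.14 over the alternatives. This error and interval take no account of replicate number. With the replicate block the change was the same, at a limma adjusted p of 0.832. Fbxw8, which works with Cul7 and acts on the insulin receptor adaptor IRS1, read 8.71, 8.71 and 8.63 with vehicle and 8.84, 8.49 and 8.56 with insulin. Insulin replicate 1 was the highest and replicate 2 the lowest of the 6, and the interval of the change ran from -0.33 to 0.22. Fbxl5, which senses iron and removes IRP2, had a change of -0.045 ± 0.12, and Fbxl12, which targets the cell cycle inhibitor p57, one of -0.0052 ± 0.13. Fbxo3, an antagonist of Fbxl2, stood at 0.011 ± 0.12 and Fbxo45, a synaptic adaptor, at 0.044 ± 0.13. For these 4 genes the 95% intervals together reached from -0.31 to 0.31.

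Of the other Kelch-like adaptors chosen by role, none passed, and their values stood on both sides of 0. Klhl9, Klhl18 and Klhl21 help place or activate Aurora kinases in dividing cells, and their changes were 0.12 ± 0.14, 0.18 ± 0.14 and 0.19 ± 0.13. For Klhl21 the vehicle arrays read 7.91, 7.78 and 7.59 and the insulin arrays 8.10, 7.90 and 7.85, so that the groups overlapped, and the change was 0.11 without vehicle replicate 3 or without insulin replicate 1. Klhl12, which enlarges COPII vesicles for collagen export, read 5.59, 5.60 and 5.63 with vehicle and 5.71, 5.94 and 5.61 with insulin. Only 1 insulin array lay within the vehicle range, and the change was 0.14 ± 0.13 (limma adjusted p = 0.738). Klhl2, an actin-binding adaptor of WNK kinases, stood at 0.091 ± 0.15, Klhl7, mutated in inherited retinal degeneration, at -0.053 ± 0.14, and Klhl8 at -0.15 ± 0.19.

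When amino acids are present, Klhl22 removes DEPDC5, a brake on mTORC1. Its brightest probe read 8.54, 8.33 and 8.13 with vehicle and 8.24, 8.33 and 8.23 with insulin, so the groups overlapped (log2 change -0.068 ± 0.13). A second probe, near background throughout, read 4.62, 4.84 and 4.57 with vehicle and 4.26, 4.35 and 4.37 with insulin, and was detected on 3 vehicle arrays and 0 insulin arrays. It passed the detection filter only through the vehicle arrays, so its lower values with insulin are part of how it was kept.

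In all, 20 members had more than 1 detected probe, with 31 further probes. Of these 20 had the same sign as the brightest probe and 11 the opposite sign. An unadjusted p under 0.05 was reached by 2 of the 31, against 9.88% of all detected probes, and 1 of the 2 was the second probe of Klhl22. Over all detected probes 0.0572% passed the adjusted threshold, and 0 of the members' 87 did. Probes disagreed in sign by over 0.3 for Fbxl18, Fbxl21, Fbxw2 and Klhl25. Fbxl21 had 0.18 ± 0.15 at the brightest probe and -0.20 and -0.22 at the others. Fbxl18 had -0.0074 ± 0.13 at the brightest probe and 0.30 and 0.076 at the others. Fbxw2, whose human form acts on the placental factor GCM1, ran from -0.0063 ± 0.14 to 0.41 over 4 probes. The further Fbxl21 probes, the Fbxl18 probe at 0.30 and the Fbxw2 probe at 0.41 were dim. Their log2 intensities were 4.39 to 5.24, 4.42 to 5.04 and 4.29 to 5.40. These Fbxl18 and Fbxw2 probes were each detected on 2 of 3 vehicle arrays, as was 1 of the Fbxl21 probes.

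**Figure D4:**
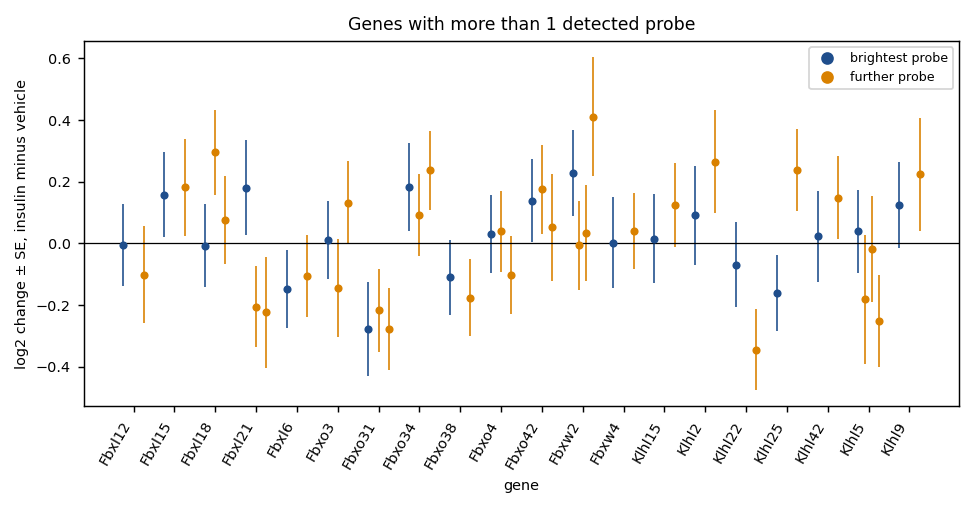
Log2 change (insulin minus vehicle) ± standard error of every detected probe of the 20 genes with more than 1 detected probe, the brightest probe in blue and further probes in orange (n = 3 arrays per group). The probes of Fbxo31 all lie below 0, while those of Fbxl21 and Klhl25 lie on both sides.

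The detection threshold decided which genes entered. Fbxl16, Fbxo11 and Klhl10 were just inside, detected on 3 arrays each, 2 vehicle and 1 insulin, and Klhl34 was detected on 5. Just outside stood Klhl23, detected on 2 vehicle and 0 insulin arrays. Fbxo11, which targets the repressor BCL6 in lymphoma, had a change of -0.012 ± 0.14. Values this close to background say little about the transcript. The other 52 members were detected on all 6 arrays, among them Fbxl14, which removes the EMT factor SNAI1 (log2 change 0.079 ± 0.14).

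Of the 47 named genes that were not tested, 39 were detected on 0 arrays, 7 on 1 and 1 on 2. The muscle adaptors Klhl40 and Klhl41, Klhl3 of the kidney tubule, Klhl1 of neurons and Klhl14 were each detected on 0 arrays. Fbxo5, an inhibitor of the anaphase-promoting complex, was also detected on 0 arrays, as were Fbxo22, Klhl13 and Klhl20. Fbxo40, which removes IRS1 in muscle, was detected on 1 vehicle array. Fbxw11, which recognises beta-catenin and the NF-kB inhibitor, was detected on 1 insulin array. A probe not above background shows no absence of the transcript. In the RefSeq annotation 12 of the 20 named Fbxw genes stand next to another Fbxw gene on chromosome 9, and 0 of these 12 were tested. Of the other 8, 6 were tested, and the remaining 2 were Fbxw10 and Fbxw11.

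The arrays differed among themselves in the members' values. Each member's values were set against its mean over the 6 arrays. The median of these deviations was 0.042, 0.032 and 0.034 on the vehicle arrays and -0.039, -0.085 and 0.036 on the insulin arrays. Insulin replicates 1 and 2 were low, while insulin replicate 3 lay among the vehicle arrays. Over all genes tested the same medians were 0.021, -0.00052 and 0.0082 with vehicle and -0.0041, -0.024 and 0.0011 with insulin. Insulin replicate 2 was the lowest of the 6 arrays for 18 of 56 members and the highest for 4. Without it the members' median change was -0.0099, beside -0.012 over all genes. Without vehicle replicate 1 it was -0.029.

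**Figure D5:**
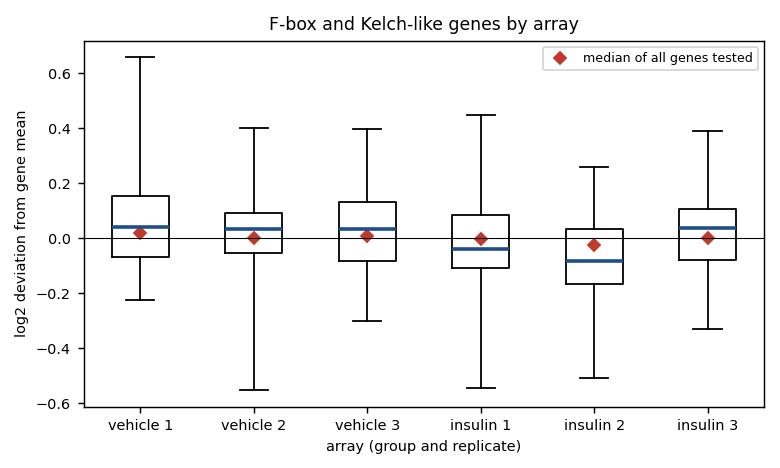
Deviation of the 56 genes from their own mean over the 6 arrays on the log2 scale, by array; boxes span the quartiles with the median in blue, whiskers reach the lowest and highest gene, and red diamonds mark the median over all 9478 genes tested. Insulin replicate 2 has the lowest median, -0.085, and insulin replicate 3 lies with the vehicle arrays.

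The ligase parts that hold these adaptors also gave no calls, where 0.464% of all genes passed. Of 32 tested genes for cullins, their RING partners, the ubiquitin-conjugating and NEDD8-attaching enzymes and the COP9 signalosome, 0 rose, 0 fell and 32 did not pass. The median log2 change was 0.063 with 24 positive values, or 75%, beside 46.0% positive over all genes tested. An unadjusted p under 0.05 (limma) was reached by 3, or 9.4%, beside 11% of all genes. Cul1, the scaffold of F-box proteins, stood at 0.053 ± 0.15, Skp1 at 0.11 ± 0.15 and Cul3, the scaffold of Kelch-like proteins, at 0.092 ± 0.13. Cul4b, a cullin that uses other adaptors, had the smallest p, with a change of -0.33 ± 0.12 (limma adjusted p = 0.345). Its vehicle arrays all lay above its insulin arrays. Ube2d2a, a ubiquitin-conjugating enzyme, stood at 0.33 ± 0.13, and Dcun1d4, which promotes NEDD8 attachment to cullins, at 0.35 ± 0.15. In Ube2d2a the vehicle arrays all lay below the insulin arrays. Cul4b and Ube2d2a were the only 2 of the 32 genes with groups apart, or 6.25%, beside 15.9% of all genes tested.

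Adaptors with an F-box or BTB domain but another name were described in the same way. Of 23 tested, 0 rose, 0 fell and 23 did not pass, where 0.464% of all genes passed. A positive change was found in 16, or 69.6%, beside 46.0% of all genes (median 0.081). An unadjusted p under 0.05 (limma) was reached by 5, or 21.7%, beside 11% of all genes. All 5 had higher values with insulin, and whether these genes differ from the members was not tested. Skp2, the F-box protein that removes the cell cycle inhibitor p27, stood at 0.47 ± 0.17 (limma adjusted p = 0.334), with overlapping groups, and at 0.27 without vehicle replicate 3. Kbtbd8, a BTB and Kelch adaptor, stood at 0.36 ± 0.14 and Tnfaip1, a BTB adaptor of RhoA, at 0.34 ± 0.14. Keap1, the Kelch-like sensor of oxidative stress, was at -0.12 ± 0.14 and Btrc, the paralogue of Fbxw11, at 0.00013 ± 0.13.

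Known substrates were read as transcripts only, since the arrays say nothing of protein. Of 32 tested, 0 rose, 0 fell and 32 did not pass, where 0.464% of all genes passed. The median change was -0.0053, and 15 were positive, or 46.9%, beside 46.0% of all genes. An unadjusted p under 0.05 (limma) was reached by 4, or 12.5%, beside 11% of all genes. Per2, a clock protein that Btrc and Fbxw11 recognise, read 0.54 ± 0.14 on the log2 scale of change (limma adjusted p = 0.137) and passed in 2 of 15 alternatives. Bcl6, the target of Fbxo11, stood at -0.45 ± 0.14 and Cdc25a, a phosphatase removed through Btrc, at 0.62 ± 0.19. Cdc25a passed in 1 of 15 alternatives, without insulin replicate 3 (0.85, limma adjusted p = 0.0274), and was 0.35 without insulin replicate 2 and 0.27 with its probes averaged. Ccnd1, a target of Fbxo31, stood at 0.047 ± 0.13, Ireb2, the transcript of IRP2, at -0.21 ± 0.15, and Eif4ebp1, the transcript of 4E-BP1, at -0.17 ± 0.15.

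Promoter windows were compared as a description, because FOXO factors, MYC and cAMP-responsive factors each have a short known motif. The RefSeq table (GRCm38.p6) held windows of 300 bases, 250 before and 50 after each gene start, for 44 of the 56 members (59 windows). It held none for Klhl30, Fbxl8, Fbxo32 or Klhl24, so the motifs were not searched in these genes. The FOXO core GTAAACA, on either strand, was in 0 of 59 windows, beside 3.65% of all 32851 windows in the table. The E-box CACGTG was in 5 windows of 3 members, or 8.47%, beside 7.15% of all windows. Fbxo10 and Klhl22 each had 2 overlapping windows that held the same E-box, so these sites were counted more than once. The cyclic AMP element TGACGTCA was in 1 window, or 1.69%, beside 1.79%. The holders of an E-box were Fbxo7, Fbxo10 and Klhl22, with changes of 0.068, -0.41 and -0.068. The 1 holder of a cyclic AMP element was Klhl12. A match is a run of letters and not a shown binding site. For Fbxo10, the member with an E-box and non-overlapping groups, for Klhl22 and for Klhl12, 1 window each is given. The motif is in capitals, and the letters run 5′ to 3′ on the strand of the gene. In the window not printed, the motif starts at position -15 for Fbxo10 and -31 for Klhl22.
Fbxo10 (chr4:45084506-45084805, minus strand, motif starting at position -64 from the gene start): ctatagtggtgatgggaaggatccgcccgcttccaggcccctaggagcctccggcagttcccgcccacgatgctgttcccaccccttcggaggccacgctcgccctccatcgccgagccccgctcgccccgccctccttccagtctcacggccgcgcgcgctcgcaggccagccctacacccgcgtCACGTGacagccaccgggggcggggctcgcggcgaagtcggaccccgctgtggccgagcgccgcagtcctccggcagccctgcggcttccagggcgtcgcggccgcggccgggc
Klhl22 (chr16:17759371-17759670, plus strand, motif starting at position -11 from the gene start): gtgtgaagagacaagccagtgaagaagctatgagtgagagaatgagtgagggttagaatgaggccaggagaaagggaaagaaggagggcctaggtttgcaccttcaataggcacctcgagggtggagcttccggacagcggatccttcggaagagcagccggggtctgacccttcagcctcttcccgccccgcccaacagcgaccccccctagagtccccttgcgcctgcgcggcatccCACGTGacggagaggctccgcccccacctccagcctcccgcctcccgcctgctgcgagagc
Klhl12 (chr1:134455281-134455580, plus strand, motif starting at position -26 from the gene start): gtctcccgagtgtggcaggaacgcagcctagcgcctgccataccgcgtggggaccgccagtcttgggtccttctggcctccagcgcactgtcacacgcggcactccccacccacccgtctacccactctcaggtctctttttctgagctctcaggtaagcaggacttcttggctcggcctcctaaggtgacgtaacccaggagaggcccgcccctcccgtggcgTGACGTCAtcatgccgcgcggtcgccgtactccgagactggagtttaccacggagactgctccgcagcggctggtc

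Markers were read for the identity of the cells. Of 9 mammary epithelial markers 4 were detected on at least 3 arrays (Cdh1, Krt8, Krt18 and Cldn3), while Epcam, Krt7, Krt19, Cldn4 and Cldn7 were not. Of fibroblast markers 4 of 7 were detected, of myoepithelial markers 2 of 5 (Krt14 and Acta2), and of endothelial, immune, fat and muscle markers 0 of 4 named on the array for each type. No marker passed the test. The summed linear intensity of the epithelial markers was 2125 to 2858 with vehicle and 2233 to 2428 with insulin, and that of the fibroblast markers 787 to 980 and 789 to 820. The summed myoepithelial intensity was 360 to 394 with vehicle and 298 to 353 with insulin, so these did not overlap, and their part in the members' values was not tested.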

How the data were processed

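Per the file headers, the deposited table held a non-normalized signal, an intensity on a linear scale, for each of 45281 probes on each of 6 arrays, with a detection p-value per probe and array. The authors' deposited processed values were linear intensity values that quantile normalization of those signals gave to within 3.33e-06. The submitters' processing notes name GenomeStudio, with no version. Signals were corrected with limma 3.58.1 (R 4.3.3) neqc, offset 16, then quantile-normalized and put on a log2 scale. This stretches differences among dim probes. Each array had 17617 to 18232 probes detected (38.9% to 40.3%), and the number of arrays limits precision. Of 17482 probes kept, 15007 had 1 gene symbol in the platform annotation, which can be old. The brightest probe stood for each gene. The comparison of insulin against vehicle used limma (lmFit, eBayes, two-sided, Benjamini-Hochberg, threshold 0.05). The procedure was also run on simulated data with independent noise of a fixed size, which does not show how it performs at the noise of these arrays. No slide or scan date was used here.

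The members and lists were chosen with earlier results of these data known, so lists are described and not tested. Named genes were members whose groups did not overlap, the 3 brightest and 3 dimmest members, those with discordant probes, a set chosen by role, Fbxo32 and Klhl24, and up to 3 genes per list by p. Others were named after their values were seen. Alternatives changed the background correction, offset, scaling, filter, probe rule, variance model and replicate block, and left out each array.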

Additional observations from a re-analysis of the deposited data

How the results depend on the processing

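Over the 15 alternatives, chosen with earlier results known, 0 members passed (limma), with a lowest adjusted p of 0.0929. In those with a detection filter, 4 to 7 members had an unadjusted p under 0.05, beside 8.09% to 12.8% of all genes. Without the filter on dim probes 9 of 103 members did, beside 8.63% of all genes. The members' median of -0.049 ran from -0.062 to -0.0074, the latter over the 51 members left by the stricter filter, and each move from -0.049 was smaller than the spread between replicates (0.043). Of the 56 members 30 kept their sign throughout. When a gene's probes were averaged, the sign turned for Fbxl18 (0.12), Fbxl21 (-0.083) and Klhl25 (0.038), where their probes disagree. Turns within the standard error of both settings are not listed. The count of genes called over all genes tested was 22 with the authors' deposited processed values, 28 with an offset of 50, 83 with a trended, robust variance and 0 without the filter on dim probes, where 8.63% had an unadjusted p under 0.05. It was 13, 2 and 3 without vehicle replicate 1, 2 or 3 and 11, 10 and 67 without insulin replicate 1, 2 or 3. With the replicate block 75 genes and 0 members passed, the lowest member adjusted p being 0.104. Deviations of same-numbered arrays correlated at 0.090, 0.15 and 0.13, and those of differently numbered arrays at -0.11 to -0.017. Each array was thus closest to its own number, a hint of pairing from the data. The labels give only a replicate number, so the main fit held no block, and a pairing was not excluded. A slide block was not run. Members near background, such as Fbxl16, Fbxo11 and Klhl10, have changes that signal over background limits.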
